A study of Mus musculus with 51 samples.

Results

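The messenger RNAs of the cytosolic ribosomal proteins were examined in mouse gastrocnemius, a fast limb muscle, after loss of the clock transcription factor Bmal1, of the oxygen-sensing ubiquitin ligase subunit Vhl, or of both. Members were the genes whose symbol begins with Rpl or Rps followed by a number, together with Rplp0, Rplp1, Rplp2 and Rpsa, leaving out symbols of pseudogene form and the Rps6k kinases. This rule, which used no measured value, gave 92 of the 48294 gene symbols that both count tables hold. They comprised 43 large-subunit proteins, 31 small-subunit proteins, 3 proteins of the stalk, 14 paralogs or gene copies, and Rps19bp1, whose symbol meets the rule although its product is not a ribosomal protein. In each batch 87 members passed the filter on low counts. Rpl10l, Rpl39l, Rpl6l, Rps12l1 and Rps3a3, all paralogs or copies, did not.

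Cytosolic ribosomes consist of a small subunit, which reads the messenger RNA, and a large subunit, which joins amino acids, each built from ribosomal RNA and many small basic proteins. Ribosomal protein messenger RNAs are abundant in nearly every cell and most begin with a terminal oligopyrimidine tract (TOP), a cytosine followed by a run of pyrimidines, through which mTORC1 controls their translation. In striated muscle some subunits have a paralog with restricted expression: Rpl3l takes the place of Rpl3 in adult fibres. Bmal1 (gene symbol Arntl) drives the circadian clock, and Vhl marks the hypoxia-inducible factors for degradation when oxygen is present.

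The libraries, 51 in all and each from 1 animal by its title, formed 10 groups in 2 labelled batches. Batch 1 held high-fat-fed Control (Bmal1fx/fx) mice (n = 7), high-fat-fed Bmal1KO mice (n = 5), chow-fed Control (Bmal1fx/fx) mice (n = 4) and chow-fed Bmal1KO mice (n = 3). Batch 2, in which every mouse was fed the high-fat diet, held Control (Bmal1fx/fx) (n = 8) and Bmal1KO (n = 4), Control (Vhlfx/fx) (n = 6) and VhlKO (n = 4), and Control (Bmal1fx/fx;Vhlfx/fx) (n = 6) and Bmal1KO;VhlKO (n = 4). The knockouts are described as specific to skeletal muscle; the labels name no Cre driver, age, time of harvest or deleted exons. Whole muscle was used, so that RNA of vessels, blood and connective tissue was measured together with that of the fibres, and fewer cells of a type cannot be told apart from less RNA per cell.

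The libraries held 6945247 to 14717795 counts (median 11123349), of which mitochondrial transcripts took 16.6% to 42.4% and the members 1.01% to 2.10%. Arntl was at 49.3% of control in batch 1 on the high-fat diet (adjusted p = 0.0025), 53.2% on chow (adjusted p = 0.082), 84.7% in the Bmal1 knockout of batch 2 (adjusted p = 0.24) and 71.5% in the double knockout (adjusted p = 0.0021). Vhl was at 55.5% of control in the Vhl knockout (adjusted p = 0.022) and 58.3% in the double knockout (adjusted p = 0.018). The counted tags come from transcript 3′ ends, which may lie outside a deleted part, so these values are a limited check of the labels, and in batch 2 Arntl did not pass the test in the library group labelled Bmal1KO. In Vhl loss alone, where the labels name no Bmal1 deletion, Arntl was at 82.9% of control (adjusted p = 0.097), about as low.

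Values are given as CPM, the counts of a gene per 1000000 counts of its library, on library sizes scaled by TMM, which sets the typical gene to no change; fold changes, their standard errors (SE) and p-values are from edgeR's quasi-likelihood test, with Benjamini-Hochberg adjustment over all genes tested, and a member passed at an adjusted p under 0.05. A change is therefore a change relative to the typical gene of the same muscle. This matters for the Vhl-deficient muscles, whose scaling factors lay apart from those of their controls: 1.06 to 1.17 in the Vhl knockout against 0.811 to 0.973, and 1.20 to 1.32 in the double knockout against 0.937 to 1.08. Without scaling, the median log2 fold change over all genes moved from 0.01 to 0.35 in Vhl loss and from 0.01 to 0.37 in double loss, and the directions below are given together with what that setting does to them.

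Promoter sequences were available from RefSeq (GRCm38.p6) for 67 of the 92 members, as 79 windows running from 250 bases before to 50 after an annotated transcription start. A pyrimidine run of at least 6 bases that begins with C was sought on the sense strand. It had to reach within 5 bases of the start and could begin farther upstream. Such a run was found in 43.0% of the members' windows against 16.3% of all 32851 windows. The motif CCGGAAG, searched on both strands like the motifs that follow, was in 34.2% against 8.86%, CGGAAGTG in 8.86% against 3.44%, and ATGGCG in 30.4% against 8.93%; CCGGAAG and CGGAAGTG share the letters CGGAAG, and 1 stretch of sequence can hold both. CACGTG was in 10.1% of the members' windows against 7.15% of all, and ACGTG, which every CACGTG contains, in 31.6% against 19.6%. These matches are descriptions of the letters in the windows. The windows of 4 members that carry the results below are shown 5′ to 3′ on the sense strand, with the pyrimidine run at the start in capitals where one was found: Rpl22l1 (chr3:28805258-28805557, plus strand), which fell in both Vhl-deficient muscles; Rpsa (chr9:120127516-120127815, plus strand) and Rps2 (chr17:24719813-24720112, plus strand), which fell in the double knockout; and Rps10 (chr17:27635195-27635494, minus strand), which rose in the Vhl knockout. No run was found in the Rpsa window.
Rpl22l1: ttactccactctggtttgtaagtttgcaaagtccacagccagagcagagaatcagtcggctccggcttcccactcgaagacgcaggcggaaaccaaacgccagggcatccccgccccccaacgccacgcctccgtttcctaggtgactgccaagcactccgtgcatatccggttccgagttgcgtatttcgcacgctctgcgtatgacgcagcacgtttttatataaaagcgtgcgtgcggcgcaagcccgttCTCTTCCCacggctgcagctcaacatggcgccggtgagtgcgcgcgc
Rpsa: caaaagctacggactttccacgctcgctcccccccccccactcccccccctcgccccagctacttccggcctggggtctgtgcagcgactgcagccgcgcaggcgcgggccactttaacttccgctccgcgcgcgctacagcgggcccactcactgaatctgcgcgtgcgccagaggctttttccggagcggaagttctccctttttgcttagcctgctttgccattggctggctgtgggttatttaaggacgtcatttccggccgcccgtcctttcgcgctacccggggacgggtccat
Rps2: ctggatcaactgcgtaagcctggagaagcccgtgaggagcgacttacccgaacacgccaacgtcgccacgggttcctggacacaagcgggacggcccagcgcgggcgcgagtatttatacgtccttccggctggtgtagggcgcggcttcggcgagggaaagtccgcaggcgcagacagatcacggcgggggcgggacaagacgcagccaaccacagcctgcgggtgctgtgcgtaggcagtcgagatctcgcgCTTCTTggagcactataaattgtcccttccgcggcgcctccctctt
Rps10: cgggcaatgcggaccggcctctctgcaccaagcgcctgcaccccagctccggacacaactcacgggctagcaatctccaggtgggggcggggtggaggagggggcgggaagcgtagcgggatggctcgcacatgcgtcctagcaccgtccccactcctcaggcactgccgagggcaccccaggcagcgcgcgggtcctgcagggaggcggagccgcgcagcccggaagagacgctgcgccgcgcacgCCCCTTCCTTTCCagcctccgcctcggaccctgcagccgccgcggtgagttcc

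Ribosomal protein messenger RNAs were counted at widely different levels although their products enter the ribosome together. QuantSeq gives 1 tag per transcript, so these levels are not divided by length. They are the counts assigned to each gene, and for members with near-identical copies, described below, they may differ from the true transcript level. Over the 87 members the median of the mean CPM was 115 in batch 1 and 160 in batch 2. The stalk protein Rplp1 had the highest mean, 688 CPM in batch 1 and 837 in batch 2, followed by the small-subunit proteins Rps14 (477 and 513) and Rps29 (438 and 579). Stalk messages had the highest median (404 CPM in batch 2), then the small subunit (227), the large subunit (147) and the paralogs (18.2). Among the paralogs Rpl3l stood at 311 CPM in batch 2 and its partner Rpl3 at 37.2, and the lowest of those that passed the filter, Rps27rt, had 0.934. Batch 2 gave higher values for nearly all members that passed, apart from Rpl23a, Rpl35, Rpl37rt and Rps27rt, in the same kind of mouse: in high-fat-fed Bmal1 controls Rps23 was 2.67 times, Rps27a 2.57 times and Rpl35a 2.35 times its batch 1 level, so levels are compared within a batch.

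Many ribosomal protein genes have processed copies elsewhere in the genome, and neither the labels nor the processing notes say how ambiguous reads were counted. Of the members that passed, 28 had no 50-base window in the last 300 bases of their transcript that another annotated transcript (GENCODE M21) also holds, 19 had some but under 50%, and 40 had 50% or more. Values of the last class are uncertain as to the gene they came from, and of the members named here it holds Rpl3, Rpl7, Rpl7a, Rpl13, Rpl17, Rpl18, Rpl22l1, Rpl23a, Rpl24, Rpl26, Rpl35, Rpl35a, Rpl36, Rpl36a, Rpl36al, Rpl41, Rplp1, Rps2, Rps3a2, Rps4x, Rps6, Rps10, Rps18, Rps26, Rps27, Rps27a and Rps27rt. The median of the mean CPM in batch 2 was 216 in the first class, 224 in the second and 135 in the third. The part of ambiguous reads in these levels was not tested. In Vhl loss the median log2 fold change was -0.06 in the first class, -0.06 in the second and -0.23 in the third.

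Loss of Vhl lowered more ribosomal protein messages than it raised. Of the 87 members 26 fell and 5 rose relative to the typical gene, 35.6% in all, against 37.2% of all 13093 genes tested; the share of all genes called lower was 19.5% and called higher 17.7%. The members' median log2 fold change was -0.09, against 0.01 over all genes. Without scaling the count became 4 lower and 43 higher and the members' median lay at 0.25 against 0.35 over all genes. The distance between members and all genes was -0.10 under both settings. Scaling moves all genes of a comparison by nearly the same amount, so this distance could hardly change and is no check of the fall. With mitochondrial genes left out before scaling the split was 24 lower and 10 higher. None of the 87 changed by a factor of 2.

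**Figure D1:**
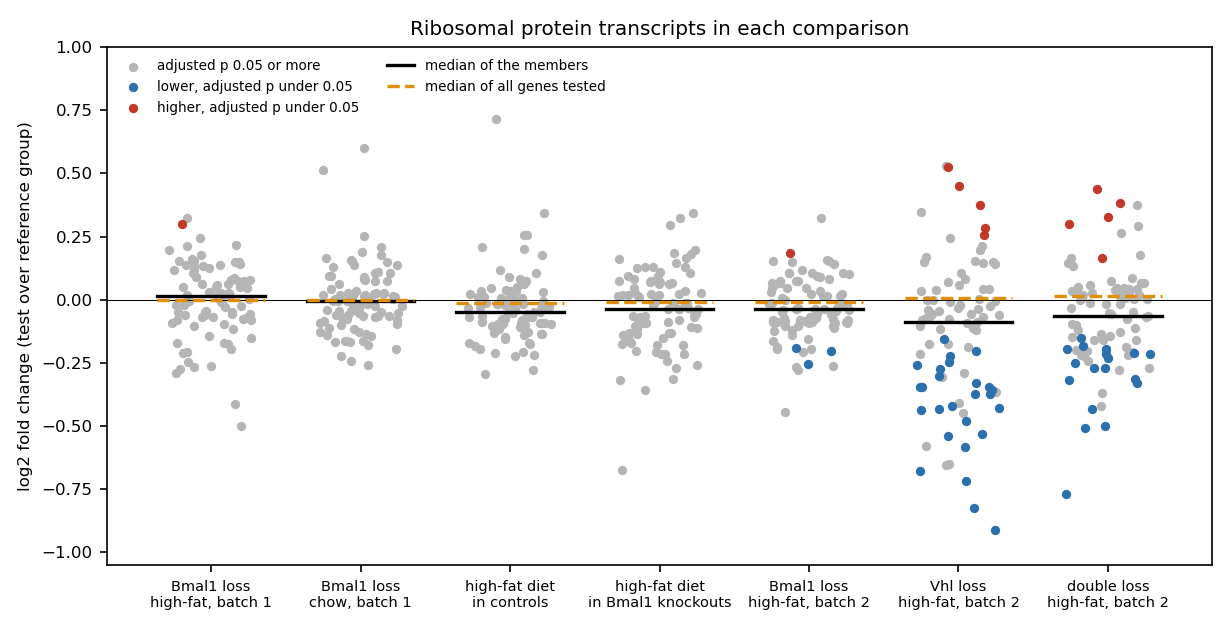
Each point is 1 of the 87 ribosomal protein genes that passed the filter; the vertical axis is the log2 fold change of the knockout against its own floxed control, or of the high-fat diet against chow, in the 7 direct comparisons. Coloured points passed at an adjusted p under 0.05 (edgeR). Black bars mark the members' medians and dashed bars those of all genes; Vhl loss has 26 lower and 5 higher, double loss 18 and 5, and the 5 other comparisons between them 5.

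The largest falls were in large-subunit proteins. Rpl4 (chr9:64173375-64178666, plus strand), which lines the tunnel through which the new chain leaves the ribosome, had 354, 359 and 511 CPM as the lowest, median and highest of the 6 Vhl controls and 176, 283, 182 and 181 CPM in the 4 knockouts. The groups did not overlap, although the highest library of each stood well apart from the rest of its group. The log2 fold change was -0.91 (SE 0.16, adjusted p = 4.4e-05).

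Rpl24 (chr16:55966275-55971435, plus strand), whose protein sits at the face that meets the small subunit, had 32.8, 40.2 and 41.7 CPM in the controls and 18.8, 28.6, 15.6 and 23.6 CPM in the knockouts, again without overlap. Its log2 fold change was -0.82 (SE 0.12, adjusted p = 1.2e-06), and 81.3% of its windows are shared with 9 other genes. Rpl17, a second lining protein of the exit tunnel with 56.6% of its windows shared, had 136, 151 and 185 CPM in controls and 83.8, 126, 75.8 and 96.2 CPM in knockouts, a log2 fold change of -0.72 (SE 0.12, adjusted p = 1.9e-05).

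The paralog Rpl22l1 (chr3:28805436-28807424, plus strand), whose promoter is shown above, had 49.3, 64.6 and 74.8 CPM in the controls and 40.3, 46.4, 37.3 and 35.7 CPM in the knockouts. Every knockout was below every control. Its log2 fold change was -0.68 (SE 0.10, adjusted p = 1.2e-06), and it shares 63.3% of its windows with 3 other genes. Its partner Rpl22, which has no shared window, had a log2 fold change of 0.07 (SE 0.06, adjusted p = 0.36).

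These 4 genes, Rpl4, Rpl24, Rpl17 and Rpl22l1, were the members that passed as lower with and without scaling. Of the 22 other lower calls 11 kept a negative sign without scaling and did not pass, among them Rpl15 (-0.58), Rpl23, a binding partner of Mdm2 (-0.54), Rps7 (-0.53) and Rpl36a (-0.48), each given here as the scaled log2 fold change. The remaining 11, among them Rpl13, Rpl14, Rpl36, Rpl36al, Rpl39, Rpl3l, Rpl7a, Rps18, Rps26 and Rps27l, lay between -0.35 and -0.16 with scaling and turned positive without it, reaching at most 0.19.

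The 5 members that rose also passed without scaling, a setting that moves all genes upwards and could hardly remove such a call. Rps14, a small-subunit protein whose haploinsufficiency causes a macrocytic anaemia in humans, had 413, 461 and 540.1 CPM in the Vhl controls and 665, 639, 741 and 630.1 CPM in the knockouts. The groups were separate, and the log2 fold change was 0.52 (SE 0.08, adjusted p = 1.7e-07).

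Rps10 (chr17:27630418-27636669, minus strand), a small-subunit protein that is ubiquitinated when ribosomes collide, had 119.9, 129.6 and 139.8 CPM in controls and 164, 167, 173 and 169 CPM in knockouts. The groups did not overlap, and the log2 fold change was 0.37 (SE 0.06, adjusted p = 2.4e-06), with 67.7% of windows shared. Rpl13a, which also takes part in silencing of inflammatory messages, rose from 9.86 ± 1.23 (SD, n = 6) to 13.5 ± 1.05 CPM (SD, n = 4), a log2 fold change of 0.45 (SE 0.14, adjusted p = 0.0091). Rpl27a (0.29) and Rpl23a (0.26) were the others.

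By subunit, 16 of 43 large-subunit members fell and 3 rose, 6 of 31 small-subunit members fell and 2 rose, 4 of 9 paralogs fell and none rose, and none of the 3 stalk proteins passed. The difference between subunits was not tested. Rplp0, Rplp1 and Rplp2, which recruit elongation factors, had log2 fold changes of -0.05, -0.02 and 0.04 (adjusted p 0.68, 0.81 and 0.67). Rps6, the substrate of the S6 kinases, had -0.65 (SE 0.34, adjusted p = 0.13) at a mean of only 11.4 CPM. Of the 87 members 14 (16.1%) had no overlap between the Vhl groups, against 22.4% of all genes tested.

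The Vhl groups held libraries that stood apart in these genes. VhlKO animal 2 and Control (Vhlfx/fx) animal 5 had the highest Rpl4 of their groups (283 and 511 CPM) and lay at the top of the main axis on which the members varied within groups, described last. Without these 2 libraries, an alternative added after the data were seen, 36 members fell and 5 rose.

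Loss of both genes gave fewer and partly different calls. In the double knockout 18 members fell and 5 rose relative to the typical gene, 26.4% of 87, against 35.4% of all genes (18.1% lower, 17.4% higher). The members' median was -0.07 against 0.01 over all genes. Without scaling 1 fell and 42 rose. The members' median was 0.08 below that of all genes under both settings, a distance that a change of scaling can hardly move. Groups without overlap numbered 16 (18.4%), against 24.0% of all genes.

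**Figure D2:**
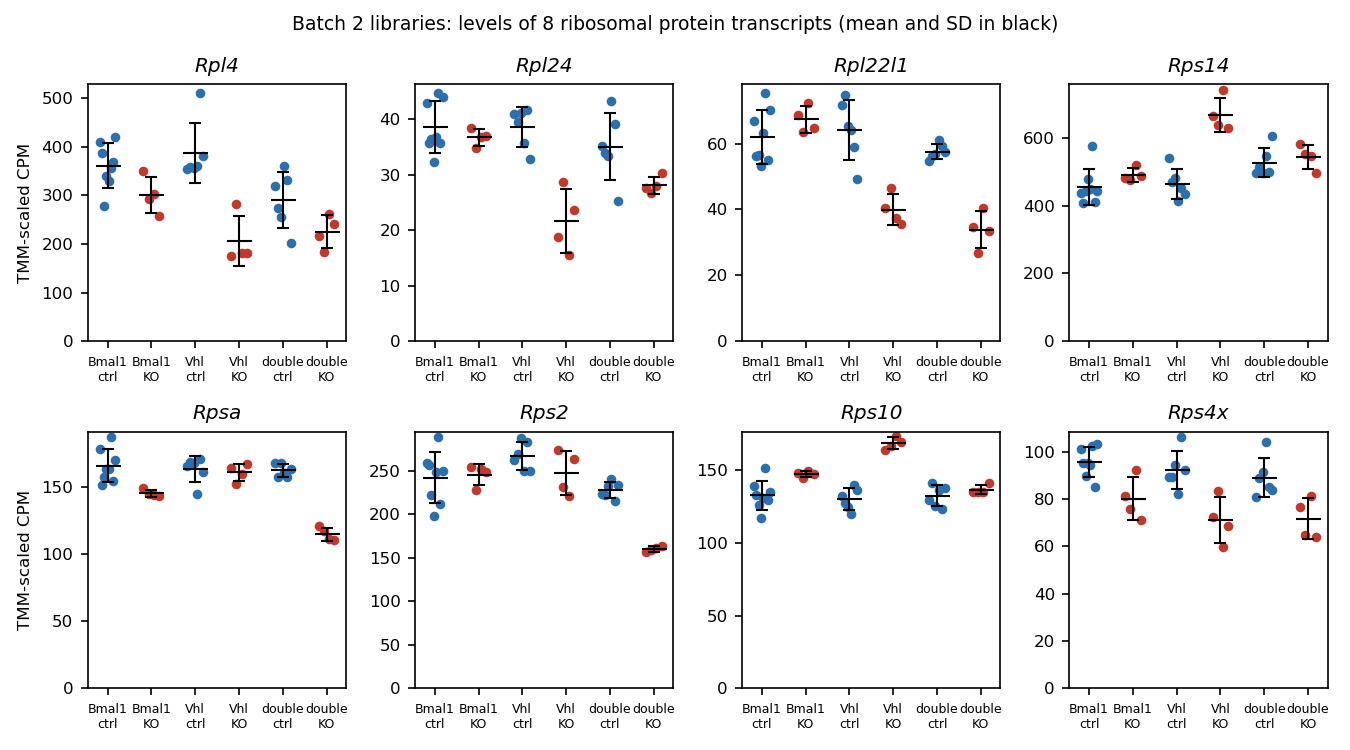
CPM of 8 ribosomal protein genes in every library of batch 2, by group; each point is 1 animal, and black marks give the group mean and SD. Rpl4 passed as lower in Vhl loss, Rpl24 and Rpl22l1 in Vhl and double loss, and Rps2 in double loss. Rpsa passed as lower in double and Bmal1 loss, and Rps4x in Bmal1, Vhl and double loss. Rps14 and Rps10 passed as higher in Vhl loss.

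Rpl22l1 fell here too, from 54.6, 57.1 and 61.1 CPM as the lowest, median and highest of 6 controls to 34.6, 26.7, 40.5 and 33.5 CPM. The groups were far from overlapping. With a log2 fold change of -0.77 (SE 0.10, adjusted p = 1.0e-07) it was the one lower member that also passed without scaling (-0.41), and its partner Rpl22 had -0.02 (adjusted p = 0.86).

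Small-subunit proteins led the other falls. Rpsa (chr9:120127689-120132369, plus strand), a small-subunit protein also known as the laminin receptor precursor and without any shared window, had 157, 162 and 168 CPM in the double controls and 120.3, 117, 111 and 110.1 CPM in the knockouts. All 4 knockouts lay far below the lowest control. The log2 fold change was -0.50 (SE 0.06, adjusted p = 4.1e-09).

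Rps2 (chr17:24718116-24721929, plus strand) lies at the entry of the messenger RNA channel, and 78.1% of its windows are shared with 51 other genes. It had 215, 228 and 241 CPM in controls and 157, 159, 161 and 164 CPM in knockouts, without overlap and with little spread within the knockouts. Its log2 fold change was -0.51 (SE 0.07, adjusted p = 2.5e-07). Without scaling Rpsa (-0.14) and Rps2 (-0.16) kept the sign and did not pass (adjusted p 0.079 and 0.087), as did Rpl7a (-0.43 scaled, -0.08 unscaled).

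A further 14 members fell with scaling and turned positive without it, to at most 0.20. Among them were Rpl24 (-0.32), Rps4x (-0.31), Rps27l, Rpl8, Rpl3l, Rps13, Rpl13, Rpl37a, Rpl32, Rps3 and Rpl14. The members that rose were Rpl13a (0.44), the small arginine-rich Rpl41 (0.38), Rps20 (0.33), the housekeeping form Rpl3 (0.30) and Rps29 (0.16). Rps29, one of the most abundant members, had 522, 553 and 595 CPM in controls and 638, 618, 631 and 604 CPM in knockouts, which did not overlap. By subunit, 8 of 43 large-subunit members fell and 3 rose, 7 of 31 small-subunit members fell and 2 rose, 3 of 9 paralogs fell, and no stalk protein passed.

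Between the Vhl and the double knockout, each with its own controls, 11 members passed in both, 20 in Vhl loss alone and 12 in double loss alone. The shared falls, 10 genes, made up 38.5% of the 26 lower calls in Vhl loss and 55.6% of the 18 in double loss, and the single shared rise was Rpl13a. A pass in one and not the other does not show a difference, so the difference of the effects was tested. It passed for 8 members, all lower in double loss, 9.20% of 87 against 8.56% of all genes (4.06% lower, 4.51% higher). Among them were Rpsa (-0.48, SE 0.09, adjusted p = 1.4e-04), Rps14 (-0.48, SE 0.11, adjusted p = 0.0023), Rps2 (-0.40), Rps10 (-0.33), Rpl6 (-0.31), Rpl8 (-0.25) and Rpl32 (-0.24). The difference did not pass for Rpl24 (0.51, SE 0.17, adjusted p = 0.057) or Rpl4 (0.54, SE 0.22, adjusted p = 0.13). Rps14 in the double comparison had 496, 508 and 605 CPM in controls and 583, 552, 547 and 496 CPM in knockouts, which overlapped fully. The count of 8 rested in part on single libraries: it was 21 (8 lower, 13 higher) without VhlKO animal 2 and 5 without VhlKO animal 3.

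**Figure D3:**
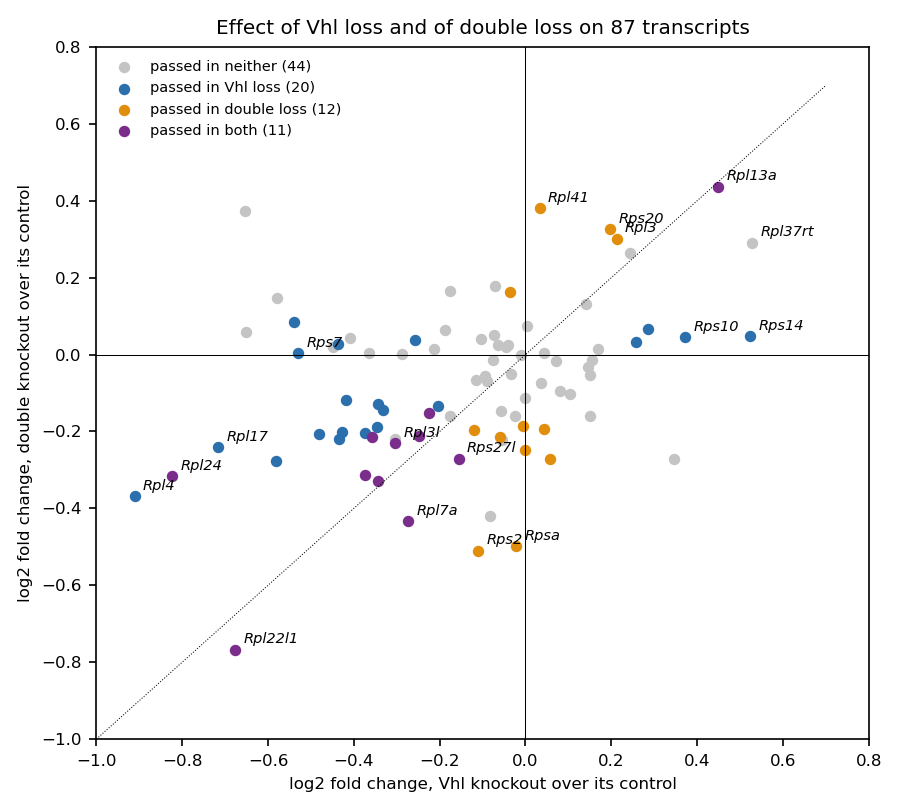
Log2 fold change of each of the 87 members in Vhl loss (horizontal) and in double loss (vertical), each against its own floxed controls; colours give the comparison in which a member passed. 44 members passed in neither, and 41 lay below 0 in both. Rpl4 and Rpl24 lie farther out along Vhl loss, and Rpsa and Rps2 along double loss. The difference between the effects passed for Rpsa and Rps2, and not for Rpl4 or Rpl24.

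Loss of Bmal1 alone left nearly all ribosomal protein messages without a passing change. In batch 2, 3 members fell and 1 rose on the high-fat diet, 4.60% of 87 against 13.9% of all genes (6.96% lower, 6.94% higher), and the members' median was -0.04 against -0.01 over all genes. Rpsa had 151, 163 and 187 CPM as the lowest, median and highest of 8 controls and 149, 144, 144 and 143 CPM in the knockouts. All 4 knockouts lay just below the lowest control, and the log2 fold change was -0.19 (SE 0.06, adjusted p = 0.017). Rps4x, the X-linked form, had a log2 fold change of -0.25 (adjusted p = 0.025, 62.2% of windows shared), Rpl14 -0.20 (adjusted p = 0.0083) and Rpl23a 0.19 (adjusted p = 0.017); their groups overlapped. Without scaling the 3 lower members kept their sign and did not pass, and 4 members passed as higher, Rpl23a among them; with RLE scaling, or with mitochondrial genes left out, 3 were lower and 2 higher. The count was 7 without Control (Bmal1fx/fx) animal 13, 2 without Bmal1KO animal 6, 1 without animal 9 and 0 without animal 7. Animal numbers are those of the titles, and the count columns of this Bmal1KO group partly carry other numbers.

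In batch 1 the same comparison gave 1 member, Rps10, of 87 (1.15%), against 9% of all 12762 genes (3.82% higher, 5.18% lower). It had 86.4, 95.5 and 118 CPM in 7 controls and 123, 126, 113, 115 and 132 CPM in 5 knockouts, of which 2 lay below the highest control. The log2 fold change was 0.30 (SE 0.09, adjusted p = 0.027), and the call was lost in 7 of the 12 fits that left out 1 library, with adjusted p up to 0.089. Without scaling, which moved the median of all genes from 0.00 to 0.16, 16 members passed, all higher. At an unadjusted p under 0.05 there were 9 members in batch 1 and 10 in batch 2.

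The summed lymphocyte markers (19 genes) moved with Bmal1 loss, from 58.4 to 155 CPM in controls up to 256 to 374 CPM in knockouts of batch 1 on the high-fat diet, and from 69.7 to 317 up to 352 to 402 CPM in batch 2. Most of this was Ighm, the immunoglobulin heavy chain, at 46.5 ± 14.9 (SD, n = 7) and 273 ± 57.4 CPM (n = 5) in batch 1 and 86.1 ± 30.4 (n = 8) and 330.1 ± 16.5 CPM (n = 4) in batch 2; the others summed to 20.8 to 75.7 and 28.1 to 55.5 CPM in batch 1 and to 32.4 to 186 and 34.5 to 80.3 CPM in batch 2. Of the markers that passed the filter, 1 of 6 was called higher in batch 1 and 1 of 7 in batch 2. Cd79a was at 0 in the batch 1 controls, Ltb in the batch 1 knockouts, and Cd3g and Cd79a, among others, in the batch 2 knockouts. The sum of 6 satellite cell markers, none at 0, also separated the groups. In batch 1 on the high-fat diet it was 46.2 to 56.8 CPM in controls and 58.6 to 65.9 in knockouts (1 marker called higher). On chow it was 42.4 to 53.7 and 54.2 to 66.5 CPM (1 called higher). In batch 2 it was 44.6 to 55.7 and 64.0 to 74.9 CPM (2 called higher). The median log2 fold change over the 6 markers was 0.03, 0.32 and 0.50 in that order, so in the first comparison the typical marker hardly moved. Of 9 tested macrophage markers 2 were called lower in batch 2, with sums of 105 to 178 and 86.0 to 106 CPM. The part of these cells in the members' values was not tested.

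Fitting the 2 batches jointly, with batch as a covariate, gave more calls for Bmal1 loss on the high-fat diet, 9 members higher and 5 lower (16.1% of 87, against 22.4% of 12565 genes, 11.1% higher and 11.3% lower). Rps4x (-0.26), Rpl4 (-0.25), Rpl17 (-0.19), Rpsa (-0.19) and Rpl14 (-0.17) fell, and members such as Rps10 (0.23), Rps29 (0.21), Rpl11 (0.19), Rpl27a (0.16), the stalk base Rplp0 (0.15), Rpl23a (0.15), Rps21 (0.15) and Rpl18 (0.13) rose. Without scaling the count was 33 higher and 1 lower, with the median of all genes at 0.12, and with mitochondrial genes left out it was 7 higher and 6 lower. The effect of Bmal1 loss differed between the batches for no member and 0.00796% of all genes (edgeR, with no member at an unadjusted p under 0.05). The log2 fold change had the same sign in both batches for 69 of 87 members (79.3%) and for 67.7% of the 12454 genes tested in both, from separate animals.

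On chow, no member passed for Bmal1 loss (edgeR, with 1 member at an unadjusted p under 0.05), where 3.84% of all genes passed (1.55% higher, 2.29% lower). The smallest p-values were those of Rps2, with a log2 fold change of 0.25 (SE 0.12, adjusted p = 0.35), Rpl28 (-0.24) and Rpl27a (0.21). The effect of Bmal1 loss was tested for a difference between the diets, and it passed for no member and for 0% of genes, with 3 members at an unadjusted p under 0.05.

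Diet also left these messages without a passing change. High-fat feeding gave no member in controls, against 2.37% of all genes (1.51% higher, 0.854% lower), and none in Bmal1 knockouts, against 3.28% (1.72% higher, 1.57% lower), with 6 and 4 members at an unadjusted p under 0.05. Rpl22l1 had the smallest p-value in controls, with 37.7, 48.1 and 57.6 CPM on the high-fat diet and 45.0, 62.5, 69.2 and 58.2 CPM on chow. The diets overlapped, and the log2 fold change of -0.28 (SE 0.11) had an adjusted p of 0.20; Rps24 (-0.29) and Rpl32 (-0.22) came next. In the knockouts the smallest p-values included those of Rpl36 (0.32, adjusted p = 0.19) and Rps24 (-0.32). Without scaling 10 members were lower on the high-fat diet in controls, where the median of all genes moved to -0.18.

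In both tests of a difference from Bmal1 loss in batch 2 Rpl22l1 had the smallest p-value of the members. Its fold change was lower in double than in Bmal1 loss by -0.89 on the log2 scale (SE 0.14, adjusted p = 8.9e-06) and in Vhl than in Bmal1 loss by -0.80 (SE 0.14, adjusted p = 2.4e-05), while Bmal1 loss itself gave 0.12 (SE 0.09, adjusted p = 0.50). In double against Bmal1 loss 5 members were lower and 2 higher (8.05%, against 16.7% of all genes, 9.04% lower and 7.69% higher): beside Rpl22l1 the lower ones included Rps2 (-0.53), the p53 target Rps27l (-0.32) and Rpsa (-0.31), with Rps20 (0.41) and Rpl13a (0.60) higher. Without scaling that split was 1 lower and 9 higher, with the median of all genes at 0.27. In Vhl against Bmal1 loss 10 were lower and 3 higher (14.9%, against 25.3% of all genes, 13.1% lower and 12.2% higher), among them Rpl24 (-0.75), Rpl4 (-0.65), Rps7 (-0.56) and Rpl17 (-0.51), and Rpl13a (0.61), Rps14 (0.42) and Rps10 (0.22). Without scaling it was 2 lower and 19 higher, with that median at 0.28. The 13 calls became 29 without VhlKO animal 2 and 7 without VhlKO animal 3.

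The balance of the muscle paralog Rpl3l (chr17:24727820-24736143, plus strand) to the general Rpl3 moved towards Rpl3 in both Vhl-deficient muscles. It was taken as a ratio within each library, which no scaling can change, though the mix of cells in whole muscle can. Myofibre marker sums fell and vessel marker sums rose in these muscles, as given below, and their part in the ratio was not tested. The ratio was 7.05, 9.61 and 10.6 as the lowest, median and highest of the Vhl controls and 5.97 to 6.96 (median 6.46) in the knockouts, and 8.28, 9.65 and 10.6 in the double controls against 6.12 to 7.28 (median 6.40) in the knockouts. Neither pair of groups overlapped.

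In an exact two-sided permutation test the difference was -0.51 on the log2 scale in Vhl loss and -0.54 in double loss (exact p = 0.0095 each, the smallest that 4 against 6 animals allow, and 0.033 after adjustment over the 7 comparisons), which is 0.70 and 0.69 of control. Rpl3l itself had a log2 fold change of -0.30 (adjusted p = 5.4e-04) and -0.23 (adjusted p = 0.0080), both of which turned positive without scaling (0.05 and 0.12). Rpl3 had 0.21 (adjusted p = 0.072) and 0.30 (adjusted p = 0.0090). Rpl3 shares 76.5% of its windows with 9 other genes, so reads of copies may be counted in the denominator, whereas Rpl3l shares none.

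The 5 other comparisons of the ratio gave differences between -0.08 and 0.08 (exact permutation p from 0.36 to 0.93), with 0.057 the smallest p possible on chow. The chow values rested on single libraries. Leaving out each library in turn moved the difference for Bmal1 loss on chow from 0.01 to between -0.33 (without control animal 2) and 0.54 (without Bmal1KO animal 1). For the high-fat diet it moved from 0.08 to between -0.26 and 0.23 in controls and from -0.01 to between -0.54 and 0.29 in knockouts, with no passing value. On chow, Control (Bmal1fx/fx) animal 2 and Bmal1KO animal 1 had ratios of 4.60 and 4.53, far below the others of their groups, with Rpl3 at 51.8 and 50.3 CPM against 20.9 to 26.7 CPM in the other chow libraries. The same 2 libraries had the highest summed lymphocyte marker level of their groups (294 and 453 CPM, over 19 markers), whose part in the ratio was not tested.

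**Figure D4:**
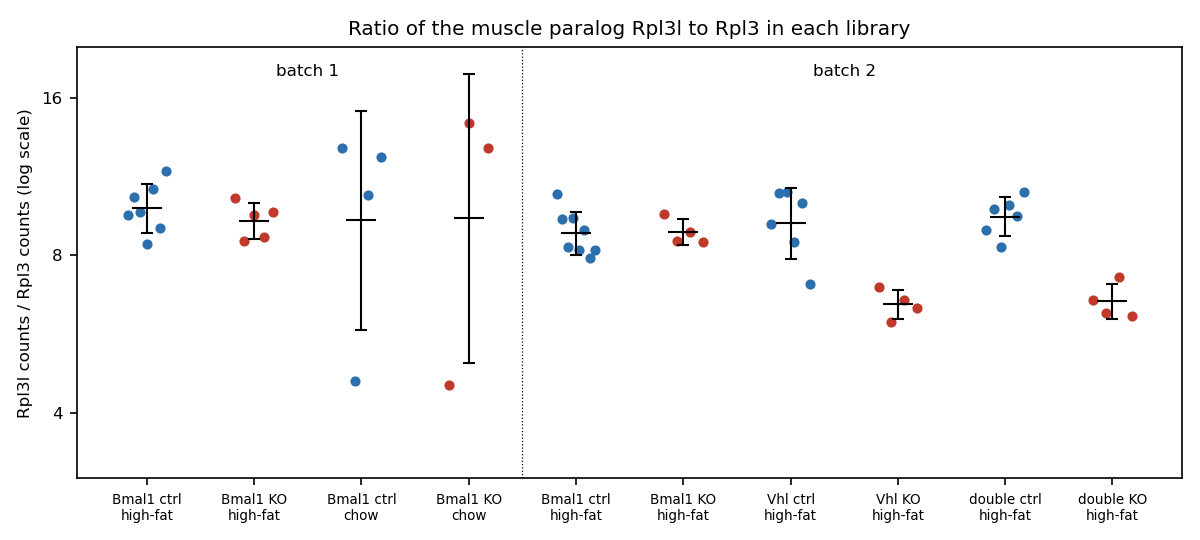
Ratio of Rpl3l to Rpl3 counts in each of the 51 libraries, by group; each point is 1 animal, and black marks give the mean and SD on the log2 scale. The ratio lies between 5.97 and 7.28 in both Vhl-deficient groups and at 7.05 or above in all other libraries but 2 chow-fed ones.

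Of the other paralog pairs, Rps27l fell in Vhl loss (-0.16, adjusted p = 0.041) and in double loss (-0.27, adjusted p = 4.4e-04) and turned positive without scaling in both, while Rps27 had 0.14 (adjusted p = 0.077) and -0.03 (adjusted p = 0.74). Rps4x fell in Vhl loss (-0.37) and double loss (-0.31), the latter turning positive without scaling, and its copy Rps4l, at 3.18 CPM, did not pass. Rpl36a (-0.48) and Rpl36al (-0.34) both passed in Vhl loss, with Rpl36al turning to 0.01 without scaling, and neither passed in double loss. All windows of Rpl36a are shared, so these values cannot be told apart from those of its copies. Rpl7 and Rpl7l1 passed in neither.

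Genes around the ribosome are given as counts beside the share of all genes that passed, 37.2% in Vhl loss and 35.4% in double loss. For Bmal1 loss on the high-fat diet this share was 9% in batch 1 and 13.9% in batch 2. Of 47 tested genes of ribosome biogenesis, the nucleolar factors that assemble ribosomes, 27 fell and 1 rose in Vhl loss (59.6% called) and 26 fell and 1 rose in double loss (57.4%), with medians of -0.37 and -0.38; without scaling 9 fell and 7 rose in each. Dkc1, the pseudouridine synthase of ribosomal RNA (-0.74, SE 0.08), Nop58 (-0.75, SE 0.10), Tsr1 (-0.87, SE 0.12) and Pno1 (-0.74, SE 0.10) had the smallest p-values in Vhl loss (adjusted p 6.1e-10 to 5.5e-08). In double loss these were the helicase Ddx21 (-0.56), nucleostemin Gnl3 (-0.89), Mdn1 (-0.95) and Nop10 (-0.58). Bmal1 loss gave 5 lower and 0 higher in batch 1, led by Mphosph10 (-0.45). That was 10.6%, against 5.18% of all genes called lower, with a median of -0.21 against 0.00 over all genes. In batch 2 it gave 1 lower, Gnl3 (-0.32), or 2.13%, against 6.96% of all genes called lower, with a median of -0.08 against -0.01. Without scaling 0 were lower in either batch.

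Of 9 tested elongation factors 4 fell and 1 rose in Vhl loss (55.6% called) and 6 fell and 1 rose in double loss (77.8%), whereas without scaling 3 rose and 0 fell, and 2 rose and 1 fell. The member that rose was Eef1a1 (0.88, SE 0.11, and 0.99, SE 0.11), the form that Eef1a2 replaces in mature muscle, and Eef2 (-0.24 and -0.55) and Eef1g (-0.38 and -0.28) fell; without scaling Eef2 turned to 0.11 and Eef1g kept its sign in Vhl loss, and the reverse held in double loss (Eef2 -0.19, Eef1g 0.08). Of 32 initiation factors 14 fell and 2 rose (50% called), and 9 fell and 3 rose (37.5%, near the share of all genes), led by Eif3a (-0.75 and -0.46), and without scaling 2 fell and 11 rose in Vhl loss and 16 rose in double loss. Bmal1 loss on the high-fat diet gave 1 initiation factor higher and 2 lower in batch 1 (9.4% called, against 9% of all genes). In batch 2 it gave 1 higher and 3 lower (12.5%, against 13.9%), and on chow 1 higher (3.1%, against 3.84%). The higher one was Eif3i each time, by 0.39, 0.31 and 0.65 in that order. On the high-fat diet Eif3a (-0.30 and -0.19) and Eif4g3 (-0.35 and -0.28) fell in both batches.

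Of 10 other known TOP messages 2 fell in Vhl loss, Npm1 (-0.83) and the nascent-chain protein Naca (-1.14), or 20%, against 19.5% of all genes called lower. In double loss 5 fell (50%, against 18.1% called lower). Without scaling 2 fell and 1 rose in Vhl loss, and 0 fell and 1 rose in double loss. In Bmal1 loss 4 fell in batch 1 (40% called, against 9% of all genes) and 3 in batch 2 (30%, against 13.9%). Nap1l1 (-0.32 in each), Npm1 (-0.36 and -0.30) and the snoRNA host Snhg8 (-0.44 and -0.39) fell in both, and Gas5 (-0.37) in batch 1. Without scaling 0 fell in batch 1 and 1 in batch 2. Of the ribosomal proteins whose symbols lie outside the rule, Fau rose in Vhl loss (0.39) and double loss (0.50), and Rack1 fell in double loss (-0.48). The median of the 10 TOP messages was -0.30 and -0.29 in Bmal1 loss of batches 1 and 2, where the members had 0.01 and -0.04.

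Of 20 genes of RNA polymerase I and its factors 4 fell and 3 rose in Vhl loss (35% called) and 3 fell in double loss (15%), at or below the share of all genes, and without scaling 10 rose and 2 fell, and 8 rose and 1 fell; the largest subunit Polr1a had -0.64 and -0.80 with scaling. Of 21 genes of mTORC1 signalling 10 fell and 3 rose (61.9% called), and 7 fell and 3 rose (47.6%), whereas without scaling 1 fell and 5 rose in each. The list mixes components of mTORC1 with its inhibitors, among them Deptor, which fell (-0.42 and -0.40), so these counts give no direction of signalling. The translation repressor Eif4ebp1 rose in Vhl loss (0.72) and fell in Bmal1 loss of batch 2 (-0.36), and Sesn3, an inhibitor of mTORC1, rose in Bmal1 loss of both batches (0.55 and 0.86) and in double loss (0.95). In high-fat-fed against chow-fed Bmal1 knockouts (n = 5 and 3) Sesn1 (-1.42), Tsc1 (-0.49), Eif4ebp1 (-0.65) and Myc (-1.66) fell. Of the 21 genes 4 passed in that comparison, all lower, where 1.57% of all genes were called lower. In controls 0 of the 21 passed for diet. The difference of the diet effect between genotypes passed for 0 of the 21, so a fall particular to the knockouts was not shown.

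Markers of other cell types moved with the Vhl results. The summed erythroid markers (6 genes, all detected and all called higher in both knockouts) had 878 to 1550 CPM in Vhl controls and 5826 to 7034 CPM in knockouts, and 868 to 1238 against 3149 to 5278 CPM in the double groups. Endothelial markers (9 of 10 higher in each) went from 591 to 1047 up to 1026 to 1093 CPM and from 601 to 906 up to 1184 to 1535 CPM, and pericyte and smooth muscle markers (5 of 7 higher in each) from 255 to 287 up to 449 to 522 and from 250.1 to 283 up to 453 to 529 CPM. The sum of 12 myofibre markers fell from 131391 to 169385 CPM in Vhl controls to 97380 to 105944 in knockouts, and from 153400 to 167711 to between 110914 and 116889 in the double groups. Of 9 tested macrophage markers 5 were higher in Vhl loss and 1 in double loss (97.3 to 199.6 against 131 to 230.5 CPM, and 94.7 to 130.0 against 124 to 141). Of 6 satellite cell markers 2 were higher and 1 lower, and 4 were higher (56.7 to 67.3 against 67.9 to 105 CPM, and 47.1 to 71.0 against 77.5 to 102). Of 8 adipocyte markers 3 were lower and 1 higher, and 4 were lower (89.7 to 362 against 59.5 to 141 CPM, and 116 to 186 against 97.4 to 149). None of these lists had a marker at 0. Mitochondrial transcripts took 37.1% ± 2.30 (SD, n = 6) of counts in Vhl controls and 32.2% ± 3.51 (n = 4) in knockouts, and 27.4% ± 2.66 (n = 6) and 19.7% ± 3.06 (n = 4) in the double groups. The members' share of all counts was 1.41% ± 0.15 (SD, n = 6) in Vhl controls and 1.70% ± 0.25 (n = 4) in knockouts, and 1.57% ± 0.16 (n = 6) and 1.92% ± 0.19 (n = 4) in the double groups. The part of these cells and of the unequal scaling in the ribosomal protein values was not tested.

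Within groups the members varied together. After group means were removed, the first principal component of the members' log2 CPM held 60.4% of their variance over the 32 libraries of batch 2 and 33.7% over the 19 of batch 1. The members with the largest spread within groups in batch 2 were Rps6 (SD 0.44 on the log2 scale), Rps23 (0.40) and Rps27a (0.39), each far above the members' median of 0.14. Rps23, a protein of the decoding centre, had 44.8, 105, 39.1 and 42.6 CPM in the 4 Vhl knockouts, where animal 2 stood far above the others. The ubiquitin-fused Rps27a had 33.6, 94.1, 37.6 and 39.5 CPM in the same animals, with the same one high.

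At the ends of the component lay VhlKO animal 2 (0.30), Control (Vhlfx/fx) animal 5 (0.26) and double control animal 4 (0.20) on one side and double control animal 6 (-0.24) and VhlKO animal 3 (-0.16) on the other. Mitochondrial transcripts took 27.1%, 34.0% and 22.3% of counts on the first side, each the lowest of its group. They took 29.4% in double control animal 6, the highest of its group, and 32.8% in VhlKO animal 3, inside its group's range. The part of library composition in this component was not tested. The genes whose level followed the sum of the other members most closely over the libraries were Rpl9 (Pearson r = 0.93), Rpl12 (0.92) and Rpl41 (0.91) in batch 2 and Rpl26 (0.93), Rplp1 (0.92) and Rpl11 (0.92) in batch 1, over 32 and 19 libraries that share groups and scaling.

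**Figure D5:**
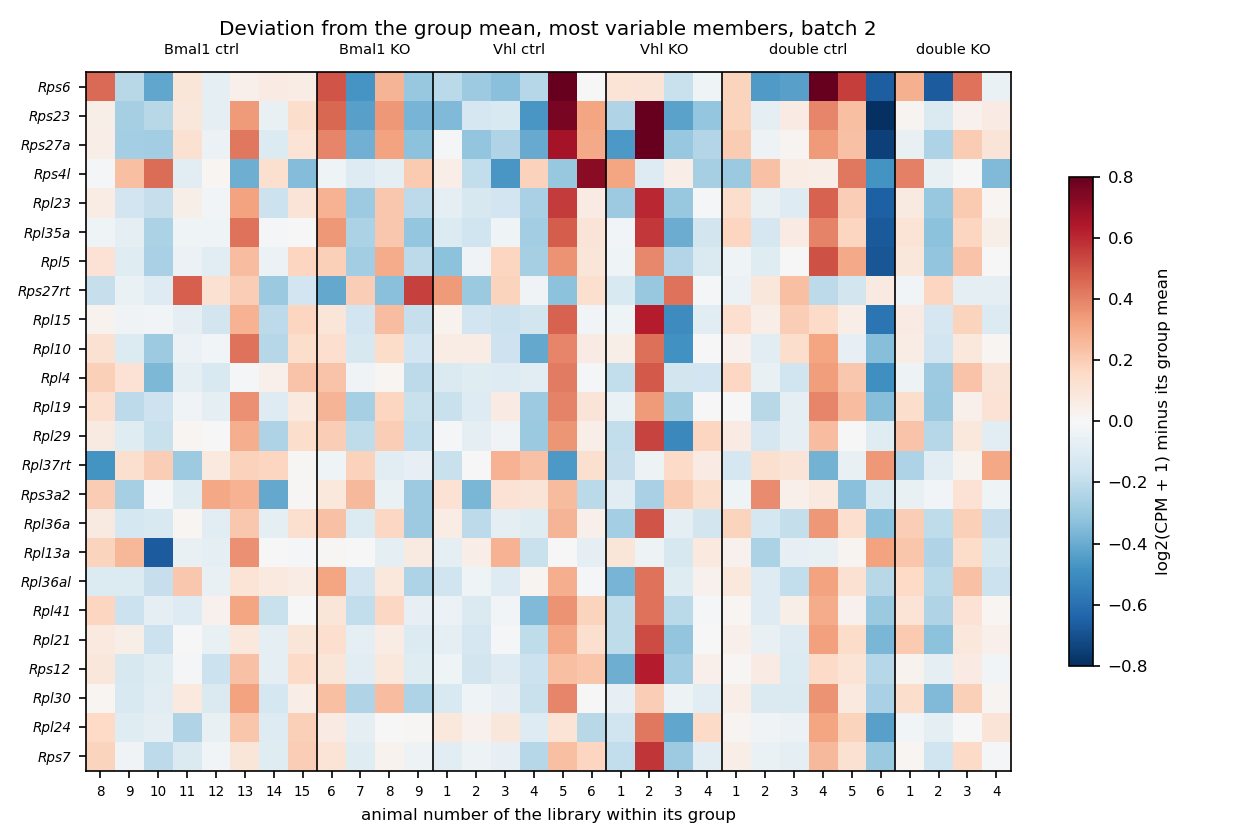
Deviation of log2(CPM + 1) from the group mean for members that varied most within groups, in the 32 libraries of batch 2; rows are genes, columns are animals ordered by group, and the colour scale is in log2 units. Most genes of a column are high or low together, with exceptions such as Rps4l, Rps27rt, Rpl37rt, Rpl13a and Rps3a2; VhlKO animal 2 and Control (Vhlfx/fx) animal 5 are mostly high and double control animal 6 mostly low.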

How the data were processed

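RNA of whole snap-frozen gastrocnemius was extracted with TRIzol and a Direct-zol kit, and 300 ng per library went into Lexogen QuantSeq 3′ mRNA-seq FWD libraries, per the labels' protocols. The deposited files hold read counts per gene symbol and library, 1 table per batch; FastQC 0.11.4, STAR 2.6.0, HTSeq, edgeR 3.26.8 and the builds mm10 and GRCm38.p4 are named in the submitters' processing notes. The authors' normalised tables were not used. Here the raw counts were tested with edgeR 4.0.16 (R 4.3.3): all groups of a batch in 1 fit, filterByExpr by group, TMM scaling, robust quasi-likelihood test, Benjamini-Hochberg adjustment over all genes of the fit, and a threshold of 0.05; the SE is the absolute log2 fold change divided by the square root of F. Bmal1 loss was also fitted over both batches with a batch term. The fit was tested on simulated counts.

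Members, gene lists and tests were chosen with earlier results of these data known. Named genes were the 6 highest and 6 lowest passing members of a comparison, or the 3 with the smallest p where none passed, the paralogs and their partners, the stalk proteins, Rpsa and Rps6, those highest, lowest and most variable in level, and up to 4 genes of each list, with the 3 members most like the sum of the others; members listed beyond these complete a count and were chosen after their values were seen. Some genes that the rule names are not reported here. The ratio of Rpl3l to Rpl3 used a pseudocount of 1 and an exact two-sided permutation test (scipy 1.17.1), adjusted over 7 comparisons. Near-identical copies were sought as 50-base windows. Alternatives were no scaling, RLE scaling, no filter, DESeq2 1.42.0, no mitochondrial genes, only the groups compared, a replicate block, a pseudocount of 0.5 for the ratio, and leaving out each library; leaving out pairs of libraries that stood apart was added after seeing the data. Depth (6945247 to 14717795 counts per library) limits precision for low members. Where nothing says how animals were housed or processed, p-values measure the spread between these libraries only.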

Additional observations from a re-analysis of the deposited data

Results flagged for a closer look

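Of 99 groups tested for a library far from the others of its group, in the members' share of counts and the levels of named members, 7 had one; chance gives about 1 group in 20. VhlKO animal 2 accounted for 3: the members took 2.07% of its counts where the lowest knockout had 1.53%, Rpl4 stood at 283 CPM against 176 to 182, and Rpl3l at 313 CPM against 236 to 248. Control (Vhlfx/fx) animal 5 had 511 CPM of Rpl4, where the next highest had 381. Control (Bmal1fx/fx) animal 1 of batch 1 on the high-fat diet had 1.24% of counts in members (next 1.10%). Rps14 was at 575 CPM in Control (Bmal1fx/fx) animal 13 of batch 2 (next 478), and Rps10 at 141 CPM in Bmal1KO;VhlKO animal 4 (next 135).

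For the 10 members whose libraries were compared in this way, 13 effects differed between knockouts of batch 2 by a test of the difference (edgeR, log2 scale); other members that passed these tests are given above. In double against Bmal1 loss these were Rpl22l1 (-0.89), Rps2 (-0.53) and Rpsa (-0.31). In double against Vhl loss they were Rpsa (-0.48), Rps14 (-0.48), Rps2 (-0.40) and Rps10 (-0.33). In Vhl against Bmal1 loss they were Rpl22l1 (-0.80), Rpl24 (-0.75), Rpl4 (-0.65), Rpl3l (-0.32), Rps14 (0.42) and Rps10 (0.22).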

How the results depend on the processing

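Of 95 recounts of passing members under other settings 77 stayed within 1.5 times the main count, as did 183 of 201 that left out 1 library. Without scaling, passing members numbered 16 for Bmal1 loss in batch 1, 10 for diet in controls, 47 for Vhl loss, 43 for double loss, 5 for double against Vhl, 21 for Vhl against Bmal1 and 34 for Bmal1 loss over both batches; the median of all genes moved with them. In Vhl loss Rpl36al (0.0091), Rpl3l (0.050) and Rps27l (0.19) then turned positive, as did Rpl24 (0.028), Rpl3l (0.12), Rps27l (0.087) and Rps4x (0.042) in double loss. DESeq2 gave 2 for Bmal1 loss in batch 1 and 13 for double against Vhl (4 higher, 9 lower). Fitting only the groups compared gave 3 for Bmal1 loss in batch 1, and no filter gave 2 in batch 2. Without Control (Vhlfx/fx) animal 5 and VhlKO animal 2, chosen after seeing the data, the counts were 17 for double against Vhl and 24 for Vhl against Bmal1. The cause of these moves was not tested.

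Replicate numbers gave no clear sign of pairing: deviations of same-numbered animals correlated between -0.33 and 0.20. With 2 to 5 shared numbers per comparison, this cannot show that the animals were unpaired. For Bmal1KO of batch 2 the numbers themselves are in doubt, since titles and count columns partly differ. With the replicate block the counts were 0 for Bmal1 loss in batch 1, 0 in batch 2, 8 over both, 4 for double against Bmal1 and 3 for Vhl against Bmal1, and within 1.5 times the main count elsewhere.

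Leaving out 1 library gave 0 to 2 calls for Bmal1 loss in batch 1 and 0 to 7 in batch 2, 0 to 1 for diet in controls, 22 to 43 for Vhl loss, 18 to 23 for double loss, 5 to 9 for double against Bmal1, 5 to 21 for double against Vhl, 7 to 29 for Vhl against Bmal1 and 10 to 20 for Bmal1 loss over both batches. The ratio of Rpl3l to Rpl3 ranged from -0.59 to -0.47 in Vhl loss and from -0.59 to -0.51 in double loss, with exact permutation adjusted p of 0.056 to 0.083, since fewer animals raise the smallest p possible. At these depths members near 1 CPM are counted with few reads.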
